A study of Mus musculus with 2 samples.

Results

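The subunits of RNA polymerases I, II and III were taken as all protein-coding genes of the GENCODE mouse annotation whose symbol begins with Polr1, Polr2 or Polr3 followed by a letter. The rule gave 28 of the 21474 protein-coding genes measured and used no expression value. By textbook role, 3 belong to Pol I only, 2 are shared by Pol I and Pol III, 7 belong to Pol II only, 10 belong to Pol III only and 5 are shared by all 3 enzymes. The remaining gene, Polr2m, encodes a protein that binds Pol II and is kept apart here. Expression was measured by sequencing polyA RNA from G1E-ER4 cells, an immortalized mouse erythroid line with no functional Gata1 gene of its own, in which the erythroid transcription factor GATA1 is restored as a fusion to the hormone-binding domain of the estrogen receptor. All cells had received 10 nM 17beta-estradiol for 30 h, which activates the fusion protein and starts erythroid differentiation. The 2 libraries are labelled as biological replicates 1 and 2 of this 1 group. Untreated cells were not analysed here, so the values describe levels in this state and no effect of estradiol. The labels do not say whether the cultures were separate, so the spread between the libraries may be technical.

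Pol I transcribes the large ribosomal RNA precursor, Pol II transcribes messenger RNA and many small nuclear RNAs, and Pol III transcribes transfer RNA and other short RNAs. The enzymes share a common architecture in which a largest and a second-largest subunit form the catalytic cleft. A pair of smaller subunits starts the assembly, and a set of small subunits is common to all of them. In maturing red cells transcription narrows to a small set of erythroid genes before the nucleus is lost.

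Levels are in TPM, the share of each gene among all transcripts after division by effective length. The division by length lets levels of different genes be compared, and the unit has a fixed sum per library. Replicate 1 summed to 73681318 expected counts and replicate 2 to 56056404. All 7 erythroid markers exceeded 1 TPM in both libraries, among them Epor, the erythropoietin receptor gene, at 78.15 and 78.45 TPM and Hbb-bs, a beta-globin gene, at 154254 and 133818 TPM. Of the markers of other cells, 0 of 3 for progenitors and mast cells, 0 of 5 myeloid, 0 of 2 lymphoid and 0 of 2 fibroblast genes reached 1 TPM in both libraries, and 2 of 3 megakaryocyte genes did. Cpa3, S100a8, Lyz1 and Col3a1 had 0 counts in both. The summed level of the myeloid markers differed between the libraries, at 0.31 TPM in replicate 1 and 10.8 TPM in replicate 2. The megakaryocyte markers summed to 4.5 and 6.65 TPM. In bulk RNA, fewer cells of a type and less RNA per cell cannot be told apart.

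The widest contrast was inside the set of 5 subunits common to all enzymes. The coding sequences of 2 of its high and both of its low members are shown because transcript base composition, described further on, varied with level across the subunits. They are the coding parts of the transcript models with the largest share of each gene's TPM, in GENCODE M21 on GRCm38, written 5′ to 3′ from the start codon, whole for Polr2l and Polr2k and as the leading 300 bases for Polr2f and Polr2h. Capitals mark each G or C at the third position of a codon.
Polr2f: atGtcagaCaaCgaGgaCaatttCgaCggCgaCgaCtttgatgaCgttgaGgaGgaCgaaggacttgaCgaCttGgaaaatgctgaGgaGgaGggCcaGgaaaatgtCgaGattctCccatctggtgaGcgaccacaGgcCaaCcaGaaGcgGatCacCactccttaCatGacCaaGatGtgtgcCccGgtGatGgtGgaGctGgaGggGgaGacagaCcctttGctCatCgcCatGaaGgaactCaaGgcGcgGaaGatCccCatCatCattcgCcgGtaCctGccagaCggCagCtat
Polr2l: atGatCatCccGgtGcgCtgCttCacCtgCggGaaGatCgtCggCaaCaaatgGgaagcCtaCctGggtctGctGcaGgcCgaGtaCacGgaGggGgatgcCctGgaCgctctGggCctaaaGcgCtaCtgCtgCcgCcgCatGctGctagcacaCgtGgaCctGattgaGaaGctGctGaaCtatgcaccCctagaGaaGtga
Polr2h: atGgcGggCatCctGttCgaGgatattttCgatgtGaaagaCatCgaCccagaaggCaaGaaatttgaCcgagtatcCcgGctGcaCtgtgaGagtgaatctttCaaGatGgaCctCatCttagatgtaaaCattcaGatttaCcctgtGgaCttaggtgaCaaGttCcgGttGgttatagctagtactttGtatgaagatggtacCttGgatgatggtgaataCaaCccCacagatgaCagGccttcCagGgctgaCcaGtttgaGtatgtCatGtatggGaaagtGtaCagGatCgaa
Polr2k: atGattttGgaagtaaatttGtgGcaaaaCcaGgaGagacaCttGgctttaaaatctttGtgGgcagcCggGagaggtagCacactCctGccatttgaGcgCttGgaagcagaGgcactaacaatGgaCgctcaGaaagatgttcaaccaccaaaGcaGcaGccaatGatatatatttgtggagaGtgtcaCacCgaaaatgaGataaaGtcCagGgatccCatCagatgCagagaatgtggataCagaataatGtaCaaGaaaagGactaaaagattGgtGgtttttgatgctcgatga
Over the whole coding sequences, 73.5% of codons ended in G or C in Polr2f (339 bases) and 80.9% in Polr2l (204 bases), against 59.6% in Polr2h (453 bases) and 44.0% in Polr2k (300 bases). These genes were picked from the high and low members of the common set, and Polr2e, also high, is not shown. In transcript GC content Polr2l at 51.7% and Polr2h at 49.4% were near each other. The codon percentages shown include the highest and the lowest of all 28 genes, 80.9% in Polr2l and 44.0% in Polr2k. Across all 28 genes the percentage was taken on the longest coding sequence annotated for each gene. That of Polr2f has 384 bases and 74.2%, so the Polr2f model shown is not its longest. Spearman's rho between the percentage and TPM was 0.46 in replicate 1 and 0.41 in replicate 2. Over protein-coding genes at 1 TPM or more rho was 0.23 and 0.25.

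Polr2f, the small acidic subunit RPB6 that helps hold the clamp of the enzyme, was the most abundant of all 28 genes. It reached 208.45 and 189.36 TPM in replicates 1 and 2, from 6028 and 4023 counts (chromosome 15, 79141009 to 79151774, plus strand, mm10). Polr2e (chromosome 10, 80035949 to 80039795, minus strand), the subunit RPB5 that forms part of the jaw, had 78.65 and 62.15 TPM. Polr2l (chromosome 7, 141471860 to 141475132, minus strand), the small zinc-binding subunit RPB10, had 59.55 and 49.94 TPM. The remaining common subunits were hardly detected. Polr2h (chromosome 16, 20717665 to 20722267, plus strand), the subunit RPB8, had 0.42 and 0.34 TPM from 25 counts (exact 95% Poisson interval 16.2 to 36.9) and 15 counts (8.4 to 24.7). Polr2k (chromosome 15, 36174010 to 36177010, plus strand), the zinc-binding subunit RPB12, had 0.39 and 0.26 TPM from 13 counts (6.92 to 22.2) and 6 counts (2.2 to 13.1). These intervals cover counting error only. Polr2h and Polr2k overlapped each other in level, and both lay below Polr2e, Polr2f and Polr2l in each library. The mean of Polr2f was 612 times that of Polr2k. These are levels of RNA and say nothing of the amount of protein.

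Among the Pol II subunits the catalytic pair was split. Polr2a (ENSMUSG00000005198.11, chromosome 11, 69733997 to 69758637, minus strand), which encodes the largest subunit with the repeated C-terminal domain, had 38.4 and 41.11 TPM from 18839 and 15453 counts. Polr2b (ENSMUSG00000029250.5, chromosome 5, 77310147 to 77349324, plus strand), which encodes the second-largest subunit, had 0.81 and 0.67 TPM from 217 and 152 counts. The level of Polr2a was 47.4 times that of Polr2b in replicate 1 and 61.4 times in replicate 2, and the 2 genes did not overlap. On the log2(TPM + 1) scale, which understates ratios for low genes, the difference was 4.55 ± 0.15 (SD, n = 2), and 3.88 after adjustment for transcript GC content, described below.

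The other Pol II subunits covered the same range. Polr2i, the RPB9 subunit involved in proofreading and start site choice, was the highest at 73.85 and 88.05 TPM. Polr2c, which with Polr2j forms the pair that starts Pol II assembly, had 17.45 and 18.32 TPM. Polr2j itself had 50.09 and 26.03 TPM in replicates 1 and 2, the largest gap between libraries of any subunit above 10 TPM. Polr2d and Polr2g encode the RPB4 and RPB7 stalk, which stands out from the core enzyme and contacts emerging RNA. Polr2d had 1.96 and 1.03 TPM and Polr2g had 3.09 and 2.41 TPM, so both stalk genes lay below Polr2a, Polr2c, Polr2i and Polr2j in each library. The highest and lowest mean of the 7 genes, those of Polr2i and Polr2b, differed 109-fold. Polr2m (chromosome 9, 71478437 to 71485935, minus strand), whose product Gdown1 binds Pol II and makes it dependent on Mediator, had 69.55 and 88.13 TPM, close to Polr2i.

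The 3 genes of the rule that belong to Pol I only were low. Pol I subunits under other symbols, described further on, are not among them. Of these, Cd3eap had 19.91 and 15.63 TPM and Znrd1 had 1.31 and 0.84 TPM. Polr1a, the largest subunit, had 2.05 and 1.35 TPM. Polr1b, the second-largest, had 2.43 and 2.18 TPM. Polr1e, the PAF53 subunit that takes part in initiation, had 0.5 and 0.3 TPM from 84 and 49 counts. Polr1e was below Polr1a and Polr1b in both libraries, and Polr1a was below Polr1b in both. Polr1c and Polr1d form the assembly pair of both Pol I and Pol III and were not alike. Polr1d (chromosome 5, 147077050 to 147111597, plus strand) had 55.3 and 56.68 TPM, and Polr1c (chromosome 17, 46243920 to 46248054, minus strand) had 8.0 and 5.6 TPM. The mean of Polr1d was 8.23 times that of Polr1c.

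The 10 genes that belong to Pol III only all reached 1 TPM in both libraries and none reached 20 TPM. Among the highest were Polr3d at 15.16 and 16.91 TPM and Polr3gl at 14.3 and 15.15 TPM, and Polr3d was above Polr3gl in both libraries. Polr3d encodes RPC4, which with the product of Polr3e forms a module for start and end of transcription. Polr3c and Polr3f, which belong with Polr3g or Polr3gl to a trimer needed for initiation, had 5.82 and 5.32 TPM, and 7.82 and 5.71 TPM. A further 5 genes lay between 1.45 and 2.86 TPM in every library. They were Polr3a, the largest subunit, Polr3b, the second-largest, Polr3e, Polr3g and Polr3k, a small subunit needed for RNA cleavage. Polr3a had 2.12 and 1.45 TPM and Polr3b had 2.86 and 2.31 TPM. The highest mean was 8.98 times the lowest, a narrower range than the 109-fold of the Pol II genes and the 612-fold of the common genes.

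**Figure D1:**
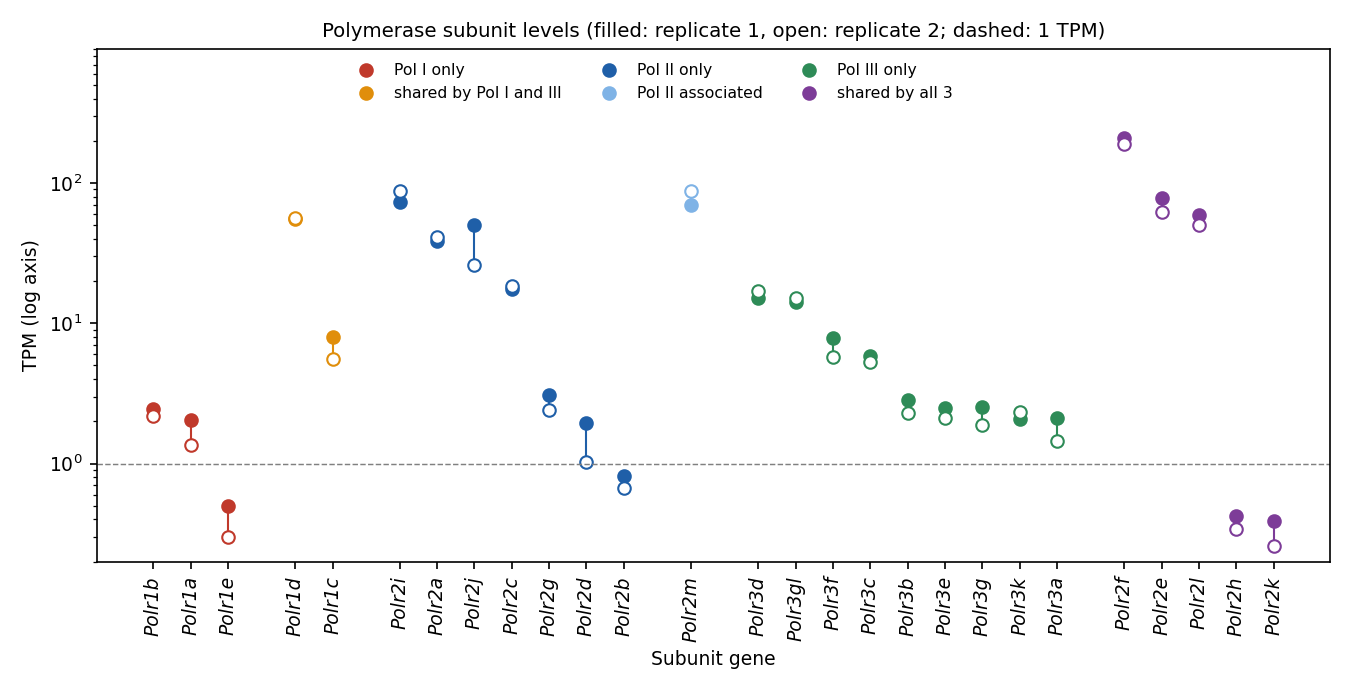
TPM of 27 of the 28 subunit genes on a log axis, by the enzyme each belongs to, with a filled point for replicate 1 and an open point for replicate 2. Polr2h and Polr2k, Polr2b and Polr1e lie under the dashed line at 1 TPM in both libraries, and Polr2f is alone above 100 TPM.

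Of the 28 genes, 24 stood at 1 TPM or more in each library, a level reached by 35.3% of all protein-coding genes. A level of 10 TPM was reached by 12 subunit genes and by 20.4% of protein-coding genes, and 100 TPM by 1 subunit gene and 4.32% of protein-coding genes. The 4 genes under 1 TPM in both libraries were Polr1e, Polr2b, Polr2h and Polr2k. The median of the 28 genes was 6.17 TPM, beside 0.015 TPM over all protein-coding genes, most of which lie under 1 TPM, and 15.4 TPM over the 7570 protein-coding genes at or above 1 TPM in each library. Ordered by mean level, 18 of the 27 neighbouring pairs overlapped in their ranges over the libraries and 9 did not. From the lowest, Polr2k, Polr2h and Polr1e overlapped with their neighbours, a gap set Polr1e below Polr2b, and another set Polr2b below Polr2d. A long run of overlapping neighbours followed from Polr2d through Polr1a, Polr3a, Polr3k, Polr3g, Polr3e, Polr1b and Polr3b to Polr2g. Further gaps lay above Polr2g and Polr1c, on both sides of Polr2c, and above Polr2a and Polr1d, and Polr2f stood clear of all others at the top. Such a gap concerns neighbours only: Polr2j, a neighbour of Polr2a, overlapped with Polr2l although Polr2a did not. With 2 libraries such ranges are a coarse guide to the order. The order itself differed little between the libraries (Spearman rho 0.984 across the 28 genes, which are not independent replicates).

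Medians were set side by side for the classes, taken on the log2(TPM + 1) scale and converted back to TPM. The classes hold only genes of the symbol rule, so subunits under other symbols, given further on, are left out. The genes common to all enzymes had a median of 59.6 and 49.9 TPM in replicates 1 and 2. The 2 genes shared by Pol I and III had 21.5 and 18.5 TPM, and the Pol II genes 17.4 and 18.3 TPM. The Pol III genes had 4.13 and 3.59 TPM, and the Pol I genes 2.05 and 1.35 TPM. The order of these medians was the same in both libraries, but those of 18.5 and 18.3 TPM in replicate 2 were close. With members under 1 TPM left out, the Pol II median was 25.5 TPM. It then lay above that of the genes shared by Pol I and III, so the order of these classes was not stable. The genes also overlapped across classes: Polr2b was below every Pol III gene, and Polr2h and Polr2k were below every Pol I gene in the mean. The difference between the Pol II and Pol III medians was 1.96 ± 0.16 in log2 (SD, n = 2), that between the Pol III and Pol I medians 0.86 ± 0.15, and that between the common and Pol II medians 1.56 ± 0.22. After GC adjustment the Pol II over Pol III difference was 1.18. Members are not replicates of a class, and with 1 group no test was made.

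Counterparts in the 3 enzymes were compared as differences in log2(TPM + 1) within each library. The 95% intervals come from the spreads of the 2 genes as moderated by limma over all genes at or above 1 TPM in each library. They treat the spreads as independent, and they are given without p-values for 11 of 15 pairs. Of these intervals, 6 left out 0, those of Polr2a with Polr1a and with Polr3a, Polr1c with Polr2c, Polr3gl with Polr3g, Polr2d with Polr2g and Polr2i with Polr3k. The other 4 pairs hold Polr2b or Polr1e, which are under 1 TPM, and their intervals come from a fit over genes from 0.1 TPM that was added after seeing the data. By that fit the interval of Polr2a over Polr2b was 4.2 to 4.9. Of the largest subunits, Polr2a exceeded Polr1a by 3.93 (3.49 to 4.36) and Polr3a by 3.88 (3.45 to 4.31), with TPM ratios of 18.7 and 30.5, and of 18.1 and 28.4, in replicates 1 and 2. Polr1a and Polr3a differed by -0.05 (-0.51 to 0.41), an interval that still allows a difference of either sign. For the second-largest subunits the order was turned. The level of Polr2b was 0.333 and 0.307 times that of Polr1b and 0.283 and 0.29 times that of Polr3b, so that Pol II had the highest largest subunit and the lowest second-largest subunit of the 3 enzymes in both libraries. On the log2 scale Polr2b was below Polr1b by -0.93 (-1.3 to -0.55 by the added fit) and below Polr3b by -1.04 (-1.44 to -0.64), and after GC adjustment by -0.35 and -0.96. Polr1b and Polr3b differed by -0.11 (-0.53 to 0.3). Within Pol I and Pol III, the largest and the second-largest subunits were near each other, with Polr1a below Polr1b by a log2 difference of -0.3 (-0.74 to 0.13) and Polr3a below Polr3b by -0.37 (-0.81 to 0.07), and both intervals included 0. After GC adjustment the intervals of 2 of these comparisons left out 0, with Polr1b below Polr3b by -0.6 (-1.02 to -0.19) and Polr3a below Polr3b by -0.63 (-1.06 to -0.2).

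The assembly pairs were compared next. Polr1c was below its Pol II counterpart Polr2c, with a difference of -1.29 (-1.8 to -0.78). Polr1d exceeded its counterpart Polr2j by 0.62, with an interval of -0.02 to 1.26, and the TPM ratio was 1.1 in replicate 1 and 2.18 in replicate 2. That difference was 1.09 (0.19 to 2.0) without replicate 1 and 1.29 (0.73 to 1.85) after GC adjustment. An interval without a replicate keeps the spread fitted on both libraries, since 1 library alone has none. The zinc ribbon subunit of Pol II, Polr2i, exceeded that of Pol III, Polr3k, by 4.67 (4.26 to 5.08), and by 3.17 (2.75 to 3.59) after GC adjustment. The related subunits Polr1e of Pol I and Polr3e of Pol III stood at a ratio of 0.202 and 0.143, a log2 difference of -1.23 (-1.62 to -0.85 by the added fit). Within the Pol II stalk, Polr2d was below Polr2g by -0.61 (-1.11 to -0.11), and without replicate 2 by -0.47 (-1.18 to 0.24), an interval that includes 0.

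Pol III exists in a pair of forms that differ in 1 subunit. Polr3g is known for its presence in stem and transformed cells, and its relative Polr3gl is found in most tissues. In these cells Polr3gl (chromosome 3, 96577872 to 96594181, minus strand) had 14.3 and 15.15 TPM, and Polr3g (chromosome 13, 81673843 to 81711013, minus strand) had 2.54 and 1.88 TPM. The ratio of Polr3gl to Polr3g was 5.63 in replicate 1 and 8.06 in replicate 2, a log2(TPM + 1) difference of 2.3 (1.85 to 2.75). After GC adjustment the difference was 1.76. Of the 5 transcript models of Polr3g, the protein-coding ENSMUST00000048993 took the most counts, 46.7% and 59.9%, but 28.27% and 31.89% of TPM. By TPM the retained-intron model ENSMUST00000162535 led in replicate 1 (32.58%) and the short processed transcript ENSMUST00000161093 in replicate 2 (48.04%). Since the series holds treated cells only, it does not show whether the ratio changes on differentiation.

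The abundance of the subunit genes rose with the GC content of their transcripts. Across the 28 genes, Spearman's rho between transcript GC percentage and TPM was 0.77 in replicate 1 and 0.74 in replicate 2, with Pearson's r on log2(TPM + 1) at 0.71 and 0.7. Over the 24 genes at 1 TPM or more rho was 0.76 and 0.71. Over the 7570 protein-coding genes at that level it was 0.29 and 0.31. The genes share libraries, depth and preparation and are not replicates, so these values are descriptions. Polr2f had 58.1% GC and Polr2e 57.8%, and the lowest gene, Polr2k, had 38.4%. Polr2b had 46.1% and Polr2a 51.7%. The lowess trend over protein-coding genes at 1 TPM or more rose from 8.53 TPM at 42% GC to 23.6 TPM at 55% GC in replicate 1, and from 7.7 to 22.9 TPM in replicate 2. Of the subunit genes, 19 lay below the trend at their GC content in both libraries and 7 lay above it. The 19 include the 4 genes under 1 TPM, which had to lie below a trend fitted to genes at 1 TPM or more. The share of all protein-coding genes below the trend was not computed. At the GC content of Polr2b the trend stood at 10.5 and 9.7 TPM. Polr2k was set against a trend of 6.89 and 6.15 TPM, and Polr2h against 12.8 and 11.9 TPM. These 3 genes are under 1 TPM and had to lie below such a trend at any GC content, so their place under it shows nothing further. After the trend was removed the mean of the highest gene, Polr2f, was 192 times that of the lowest, now Polr1e. The ratio of Polr2f to Polr2k was 50.6 instead of 612. Within the common set the widest ratio became 123, of Polr2f over Polr2h. Within the Pol II set it went from 109 to 26.7, of Polr2i over Polr2d, and within the Pol III set it was 7.99. The trend was removed on the log2(TPM + 1) scale, where the added 1 TPM weighs heavily in genes near 0. The mean of Polr2k rose from 0.325 to 2.37 TPM this way. These changes in ratio therefore mix the trend with the added 1 TPM, and their shares were not separated. Transcript length followed level less closely (rho -0.24 and -0.28) and about as in all expressed protein-coding genes (-0.29 and -0.26). Whether GC content acted on the measurement or goes with the genes was not tested.

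**Figure D2:**
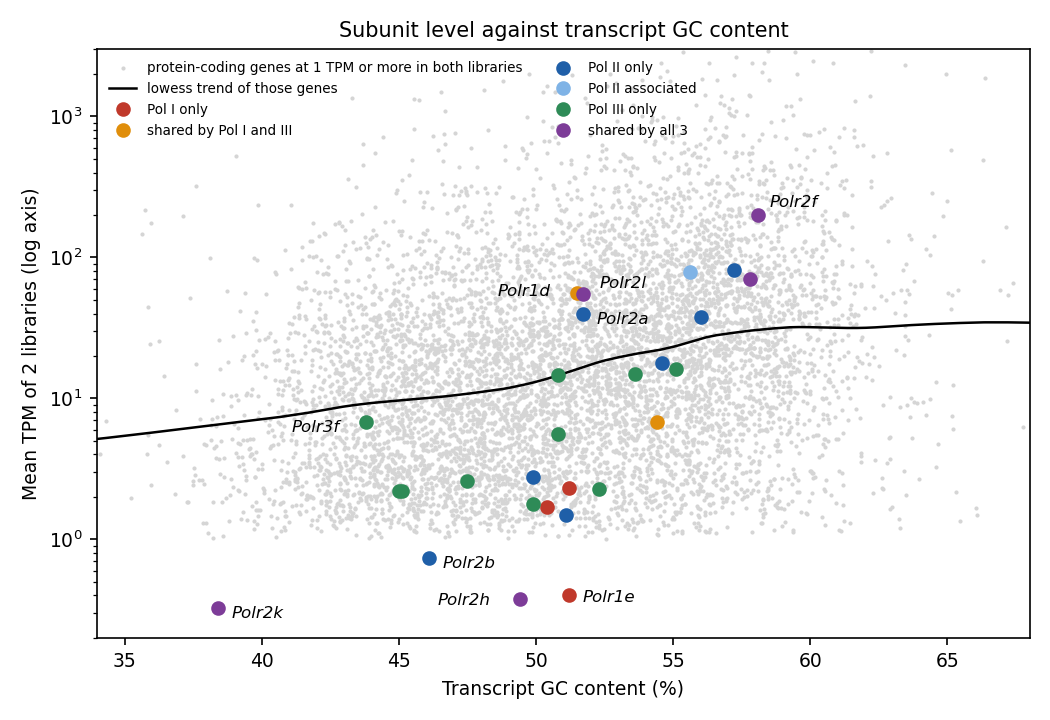
Mean TPM over both libraries on a log axis against transcript GC content in percent, for the 28 subunit genes (coloured) and for protein-coding genes at or above 1 TPM in each library (grey), with the lowess trend of the latter as a line. Polr2k at 38.4% GC and Polr2f at 58.1% GC are the ends of the range. Polr2b, Polr2h and Polr1e, all under 1 TPM, lie under the line, which was fitted to genes at or above 1 TPM.

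The start region of Polr2a is shown as that of the abundant partner in the Pol II active centre. It is the 250 bases before the annotated start in RefSeq on GRCm38.p6, chromosome 11 at 69758634 to 69758883, minus strand, written 5′ to 3′ on the strand of the gene, with matches to the motifs named below, on either strand, in capitals.
Polr2a promoter: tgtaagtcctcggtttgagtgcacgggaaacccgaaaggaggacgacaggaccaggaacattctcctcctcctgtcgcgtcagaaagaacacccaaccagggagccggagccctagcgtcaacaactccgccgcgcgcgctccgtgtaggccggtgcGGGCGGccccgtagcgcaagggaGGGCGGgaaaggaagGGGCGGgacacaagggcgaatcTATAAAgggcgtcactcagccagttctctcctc
This window held 3 copies of the GC box GGGCGG and 1 TATA box TATAAA, with 62.8% GC and 23 CpG dinucleotides. That of Polr2b is not shown, because RefSeq places its start at 77310484, which is 337 bases inside the gene as GENCODE M21 has it.

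Of the 28 genes, 22 matched a RefSeq promoter by symbol, and Polr2d, Polr2g, Polr2k, Polr3a and Polr3d were among the 6 that did not. Each of the 22 windows of 300 bases, from 250 before to 50 after the start, was searched on both strands beside all 27025 RefSeq promoters of that length. CACGTG reads the same on both strands, and no motif searched contains another. The RefSeq and GENCODE M21 starts lay within 100 bases of each other in 15 of the 22 genes and further apart in 7, so some windows lie inside the GENCODE gene. The median was 24.5 CpG dinucleotides and 61.7% GC, against 7 and 52.7% over all promoters. The GC box GGGCGG was present in 14 (63.6%, all promoters 35.9%), the ETS core CCGGAAG in 7 (31.8%, all 9.12%) and the E-box CACGTG in 4 (18.2%, all 7.24%). The CCAAT box CCAAT was present in 6 (27.3%, all 37.9%) and the TATA box TATAAA in 2, Polr2a and Polr2c (9.09%, all 14.2%). The GATA motif AGATAA was present in 1, Polr3k (4.55%, all 11.4%). The 7 genes with the ETS core were Polr1c, Polr1e, Polr2c, Polr2f, Polr2j, Polr3b and Polr3g, which span nearly the whole range of levels from Polr1e to Polr2f. A match is a description of letters and not evidence of binding, and all promoters include those of genes that are silent in these cells.

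Transcript models were compared for the 8 subunit genes that reached 10 TPM in each library and had 2 or more models. In all 8 the model with the largest share of the gene's TPM was the same in both libraries and was annotated as protein-coding. The median share of the leader was 79.2% in replicate 1 and 83.5% in replicate 2, and in 7 of the 8 genes the leader held at least 60% in both. Polr2a had the highest share, with 99.92% and 100% for ENSMUST00000058470. The exception was Polr2e, in which the protein-coding model ENSMUST00000004786 held 43.13% and 45.44%. The retained-intron models ENSMUST00000131743 (32.4% and 18.24%) and ENSMUST00000152843 (22.06% and 33.59%) held most of the rest of Polr2e, so the 78.65 and 62.15 TPM of this gene are not all of coding messages. The 2 retained-intron models changed places between the libraries. In Polr2m, chosen after its values were seen, a model annotated for nonsense-mediated decay held 26.44% and 32.34%. Polr1c and Polr3k are below 10 TPM and were likewise chosen after their values were seen. In Polr1c the model ENSMUST00000173232, annotated for nonsense-mediated decay, held 49.49% and 35.2% of TPM, and the protein-coding model ENSMUST00000087026 held 24.59% and 29.77% of TPM but 50.1% and 56.4% of the counts. A retained-intron model of Polr3k held 78.03% and 81.73% of TPM but 28.9% and 32.8% of the counts, since it is short (474 bases). In 9 of the 28 genes only 1 model was listed.

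Exons of 10 subunit genes overlap those of a gene on the opposite strand, and no source used here says how strand entered the counting. The overlaps with expressed neighbours included 325 bases between Polr2i and Tbcb (45.87 and 54.64 TPM), 176 bases between Polr2j and Lrwd1 (118.59 and 113.59 TPM), 82 bases between Polr2h and Clcn2 (22.64 and 22.02 TPM) and 245 bases between Polr2f and 1700088E04Rik (3.04 and 3.07 TPM). In 5 further overlaps the neighbours were under 1 TPM in both libraries. Reads in these stretches cannot be assigned to a strand without that setting, and how much it bears on each gene was not tested.

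The 2 libraries were compared with each other by an exact two-sided binomial test on rounded expected counts at the TMM-scaled ratio of totals, with Benjamini-Hochberg adjustment over 10445 genes. It compares these libraries with regard to counting error alone and not conditions, and by it 59.2% of all tested genes differed. Of the 27 subunit genes tested, 18 differed, with 7 higher in replicate 2 (30.0% of all tested genes) and 11 lower (29.2% of all tested genes). Polr2k had too few counts to be tested. The median log2 ratio of replicate 2 over replicate 1 was -0.18 for the subunit genes and -0.01 for all tested genes. When libraries were scaled by their totals, the split was 4 higher and 14 lower among the subunit genes (22.2% of calls higher, 38.9% with TMM) and 39.1% of calls higher among all genes (50.7% with TMM), and the median over all genes was -0.08. Polr1d, Polr2c and Polr3gl were no longer called under that scaling and Polr1b and Polr3e were among those newly called lower. Polr3f was not called with DESeq2 size factors or a count minimum of 1. No subunit gene was called in opposite directions by different scalings.

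Polr2j had the largest fall by the exact binomial test, with a log2 ratio of -0.9 (95% interval -1.03 to -0.78, adjusted p = 1.46e-48). Polr2d followed with -0.88 (-1.41 to -0.38, adjusted p = 0.000775, exact binomial test), from 117 and 46 counts. These 2 genes were outside the span from -0.63 to 0.46 between the 5th and 95th percentiles of protein-coding genes at 1 TPM or more. The other called genes were inside it. Genes called higher were Polr2m at 0.33, Polr2i at 0.28, Polr3d at 0.23, Polr3gl at 0.19, Polr2a at 0.18, Polr2c at 0.13 and Polr1d at 0.09. Genes called lower besides Polr2j and Polr2d were Polr3g, Polr1a, Polr3a, Polr1c, Polr2e, Polr3b, Polr2l, Polr3f and Polr2f, from -0.54 for Polr3g to -0.12 for Polr2f. The genes called higher were 3 Pol II, 2 Pol III and 1 shared subunit and Polr2m. All 3 abundant common subunits were called lower, as were 29.2% of all tested genes. Their ratios of -0.34 (Polr2e), -0.19 (Polr2l) and -0.12 (Polr2f) lay inside the span given above, and no class pattern is read from these calls. The myeloid markers moved with the library as well, from 0.31 to 10.8 TPM in sum, and their part in these differences was not tested.

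**Figure D3:**
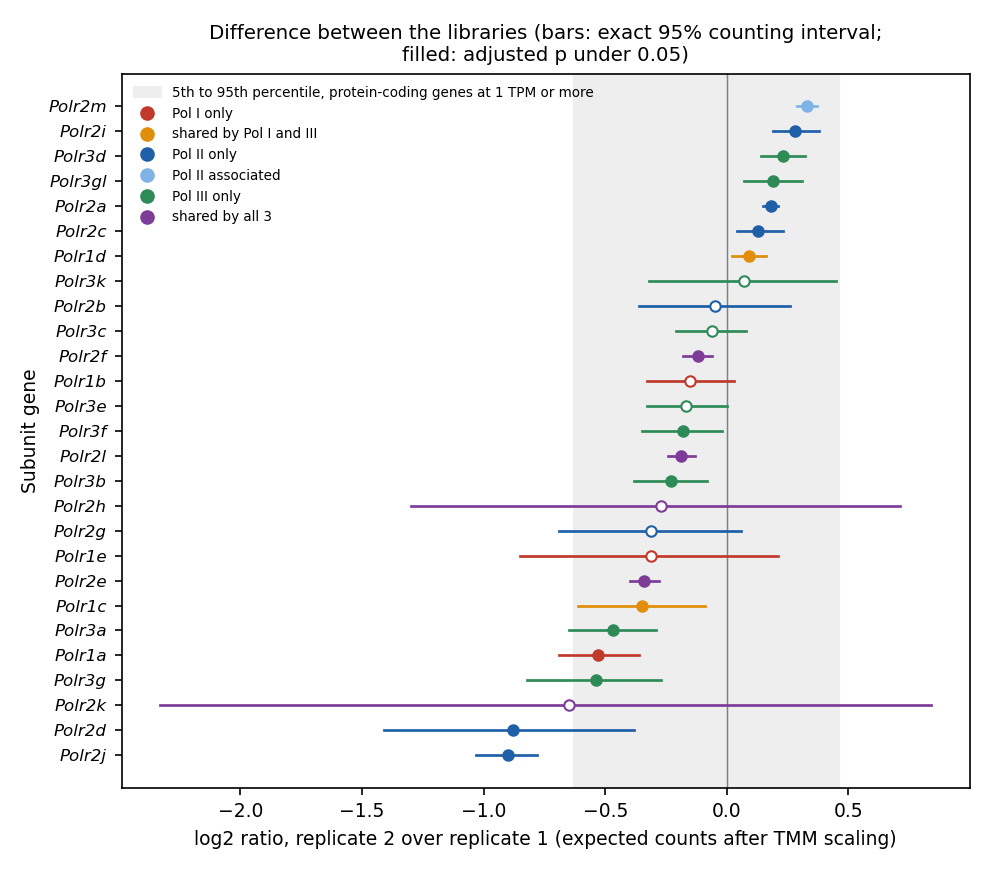
Log2 ratio of replicate 2 over replicate 1 for 27 of the 28 subunit genes after TMM scaling, with exact 95% intervals for counting error as bars, filled points where the adjusted p is under 0.05, and grey shading from the 5th to the 95th percentile of protein-coding genes at 1 TPM or more. Polr2j at -0.9 and Polr2d at -0.88 are called outside the shading, while the wide bar of Polr2k rests on 13 and 6 counts.

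Genes that work with the polymerases were described from lists by role. Of 5 polymerase genes under other symbols, 4 reached 1 TPM in each library, and the median was 9.3 TPM. They include Polrmt, the single-subunit polymerase of mitochondria, at 8.89 and 9.91 TPM. Cd3eap, the Pol I partner of Polr1e in a heterodimer, was highest at 19.91 and 15.63 TPM, far above the 0.5 and 0.3 TPM of Polr1e. Znrd1, the zinc ribbon subunit of Pol I, was lowest at 1.31 and 0.84 TPM. In the libraries as compared above, 1 of the 5 was called higher in replicate 2 and 2 were called lower. Beside these counts and those of the lists below, 30.0% of all tested genes were called higher and 29.2% lower.

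Of 8 Pol I factors, 5 reached 1 TPM in each library, and the median was 8.56 TPM. Ubtf, the factor that binds the ribosomal RNA genes, was highest at 82.65 and 83.18 TPM. Taf1a, part of the selectivity factor that recruits Pol I, was lowest at 0.36 and 0.31 TPM. In replicate 2, 2 of these factors were called higher and 4 lower.

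Of 18 Pol II initiation factors, 16 reached 1 TPM, with a median of 6.34 TPM. They ranged from Gtf2f1, a TFIIF subunit, at 349.25 and 326.45 TPM to Cdk7, the kinase of TFIIH, at 0.3 and 0.26 TPM, and 3 were called higher in replicate 2 and 7 lower. Of 19 factors for elongation and for the C-terminal domain, 18 reached 1 TPM, with a median of 30.2 TPM, the highest of these lists. Nelfe, a subunit of the pausing factor NELF, had 186.82 and 168.23 TPM, and Rpap2, a phosphatase of the C-terminal domain, had 0.76 and 0.51 TPM. Among these, 6 were called higher and 7 lower.

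Of 15 Pol III factors measured, 13 reached 1 TPM, with a median of 10.7 TPM, above the 4.13 and 3.59 TPM medians of the genes that belong to Pol III only. Maf1, the repressor of Pol III, was the highest gene of any list here except the erythroid markers, at 889.69 and 1147.8 TPM. The highest value of a gene that belongs to Pol III only was 16.91 TPM. Gtf3c3, a subunit of TFIIIC, was lowest at 0.86 and 0.39 TPM, and 6 of the factors were called higher in replicate 2 and 4 lower. All 9 assembly and import factors reached 1 TPM, with a median of 13.3 TPM, from Ruvbl1 at 4.26 and 3.53 TPM to its partner Ruvbl2 at 72.45 and 65.1 TPM, with 0 called higher and 3 lower.

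**Figure D4:**
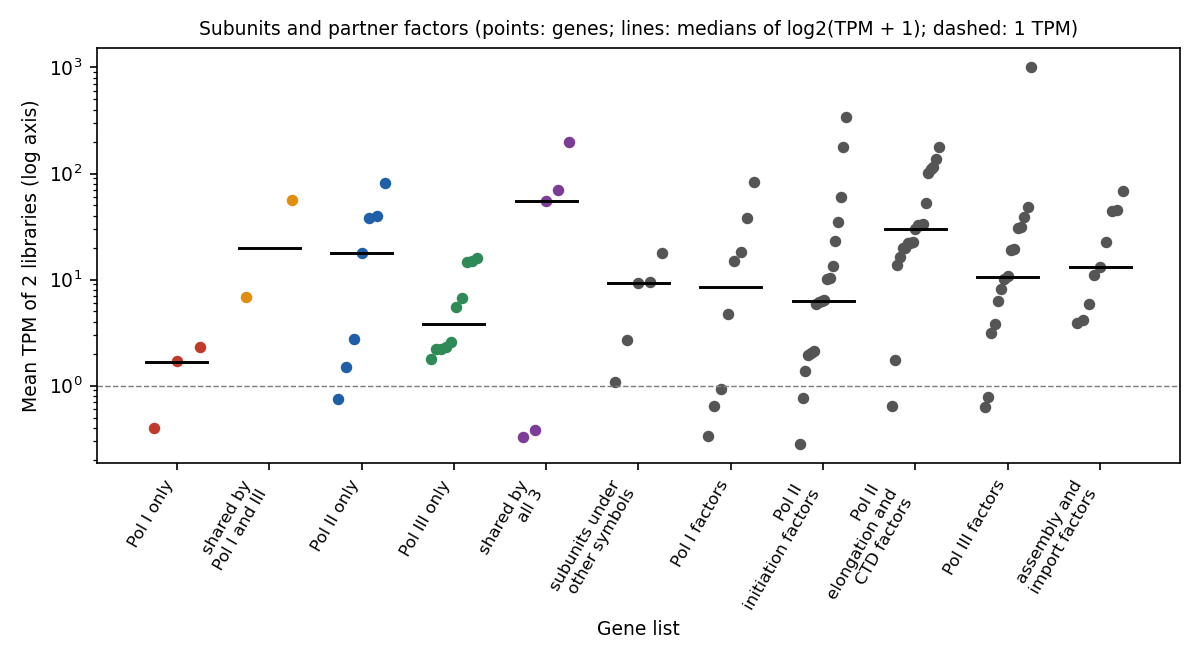
Mean TPM over both libraries on a log axis for the subunit genes by class and for the genes of the 6 lists of partner factors, with 1 point per gene and a line at each median, taken on the log2(TPM + 1) scale. The elongation factors have the highest median of the partner lists at 30.2 TPM, and Maf1 stands apart among the Pol III factors.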

How the data were processed

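Both libraries are polyA RNA from 1 group. Per the deposited description files, values refer to mm10 and GENCODE M4; the sources used here do not name an aligner or quantifier. As deposited, expected counts are the authors' estimated counts per gene or transcript, not normalized. The deposited TPM values are scaled by effective length to the same sum per library, and the deposited FPKM values by length and depth, per the file headers. The authors' percent values give each transcript's part of its gene's TPM. Depth was 73681318 and 56056404 counts.

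Of 43346 gene rows, 42462 matched GENCODE M21 (same build), which gave names, coordinates and transcript GC content (mean over annotated transcripts). The members, lists, pairs and named genes were chosen with earlier results of these data known. Members are named, and of other lists the highest, the lowest and any with 0 counts; 1 member and a few other genes are not reported here by name. Among members that reach 10 TPM in each library and have 2 or more models, transcript models are named where the leader differs, is non-coding or holds under 60%, and for the highest share.

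Levels are TPM, with medians on log2(TPM + 1). Pair intervals (95%) used limma 3.58.1 spreads, with a trend. Libraries were compared by the exact binomial test on counts rounded to whole numbers, for genes with at least 20 summed counts, with TMM factors from edgeR 4.0.16 and a threshold of 0.05. GC adjustment used a lowess with fraction 0.3 on log2(TPM + 1), fitted to protein-coding genes at 1 TPM or more in each library. Alternatives were a pseudocount of 0.1, FPKM, posterior means, GC adjustment, members under 1 TPM left out, library totals, DESeq2 1.42.0 size factors, count minimums of 1 and 100, and each replicate left out. R 4.3.3, Python 3.11.15, scipy 1.17.1 and statsmodels 0.14.6 were used, and steps were tested on simulated data. Gtf3c2 and protein sequences were not analysed here.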

Additional observations from a re-analysis of the deposited data

How the results depend on the processing

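Of the 111 alternative values of class and pair differences, 0 reversed in sign, but many of them could not. The difference between Pol II and the genes shared by Pol I and III was not among them. Every difference had the same sign in both libraries, so leaving out a replicate could not turn it. FPKM and a smaller pseudocount keep the order of 2 genes within a library. Over the 15 pairs and the alternatives that keep both libraries, 32 of 60 differences stayed within 1 SD of the library spread and 28 moved. The SD of 2 libraries is near 0 for some pairs, so some of these moves were small. Polr1a over Polr3a, with an SD of 0.02, moved from -0.05 to -0.07 with a pseudocount of 0.1. The balance of calls over all genes turned with library totals, from 3136 higher and 3047 lower in replicate 2 to 2423 and 3776. With GC adjustment the class medians were 2.49 TPM for Pol I, 14.6 for Pol II, 5.87 for Pol III and 42.5 for the common subunits, and the log2 difference of Pol II over Pol III was 1.18. With members under 1 TPM left out, the medians were 25.5 TPM for Pol II and 69.9 TPM for the common subunits, and Pol II over Pol III was 2.45. This put the Pol II median above that of the genes shared by Pol I and III, the reverse of their main order. A pseudocount of 0.1 gave 2.21 for Pol II over Pol III and 1.14 for Pol III over Pol I. The number of pairs whose 95% interval left out 0 was 6, and 10 when limma was fitted over genes from 0.1 TPM, an alternative chosen after seeing the data that added the 4 pairs with Polr2b or Polr1e. With library totals 4 subunit genes were called higher in replicate 2. The median share of leading transcripts was 92.4% by counts. The cause of these shifts was not tested.

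Leaving out a replicate gave medians of 1.35 to 2.05 TPM for Pol I, 18.5 to 21.5 for the subunits of Pol I and III, 17.4 to 18.3 for Pol II, 3.59 to 4.13 for Pol III and 49.9 to 59.6 for the common ones. Log2 differences were 1.85 to 2.07 for Pol II over Pol III, 0.75 to 0.97 for Pol III over Pol I and 1.4 to 1.71 for common over Pol II. Pairs with an interval off 0 numbered 5 to 7, by spreads still fitted on both libraries, and transcript shares were 79.2% to 83.5%. No paired analysis was possible because both libraries belong to 1 group. Depth limits Polr2h, Polr2k and Polr1e, which rest on 6 to 84 counts, and Polr2d, which rests on 117 and 46.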
